A study of Homo sapiens with 5 samples.

Results

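The Smad3-alone distal peaks are regions that an anti-Smad3 antibody recovered from BT549 cells expressing constitutively active Smad3 (caSmad3), away from gene ends and from the peaks of 3 other lists. A peak of the Smad3 list of caSmad3 cells was a member when it shared no base with an IRF3 peak of the same cells or with a Smad3 peak of HA control cells, and when its centre lay more than 1 kb from every end of a protein-coding gene. Of the 6041 Smad3 peaks of caSmad3 cells 3113 were members (51.5%), out of 19372 peaks in the 5 lists of the series. Members were therefore chosen by measured peak positions, and the separation from those 3 lists and from gene ends is a description and not a finding.

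BT549, an established cell line, comes from a basal-like breast cancer. All cells carried a lentiviral construct, either caSmad3 or the HA control vector, and the study asked where IRF3 and Smad3 bind after transfection of polyI:C, a mimic of viral double-stranded RNA. The 5 groups had 1 library each: Smad3 in caSmad3 cells after polyI:C (6041 peaks), IRF3 in caSmad3 cells after polyI:C (8067 peaks), Smad3 in HA cells after polyI:C and TGF-beta (786 peaks), Smad3 in HA cells after mock transfection and TGF-beta (353 peaks), and IRF3 in HA cells after polyI:C (4125 peaks). TGF-beta was given at 1 ng/ml for 1.5 h before the Smad3 libraries of HA cells, whereas caSmad3 cells received none, so the caSmad3 construct and the lack of TGF-beta cannot be told apart between these groups. With 1 library per group there was no replicate check and no test between conditions, and sequencing depth is unknown, so the number of peaks in a list is no measure of binding strength. The lists hold positions only, and no peak has a height or score. The antibody was directed at Smad3, so endogenous Smad3 and caSmad3 cannot be told apart.

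Smad3 is a transcription factor that receptors of the TGF-beta family activate by phosphorylation. It enters the nucleus with Smad4 and binds short DNA elements built on GTCT or its complement AGAC, many of them in enhancers where AP-1, TEAD or lineage factors also bind. In mesenchymal and invasive cells its textbook targets include genes for matrix proteins, protease regulators and inhibitors of its own pathway.

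No genome sequence was used here, so members were read only where they ran across a RefSeq promoter window (GRCh38.p14, 250 bases before to 50 bases after an annotated start). Of the 2896 members on chromosomes with such windows, 105 shared at least 1 base with such a window (3.63%, 95% Clopper-Pearson interval 2.97 to 4.37%), 50 of them with that of a protein-coding gene and 63 with that of a long non-coding RNA (lncRNA) gene. A protein-coding window can lie at a member because the rule measured distance to the outer ends of a gene, and many genes start at further positions inside. The 250 bases before the start are shown for 4 lncRNA genes and 1 protein-coding gene to let the wide or motif-bearing members be read directly. The stretches are LINC03108 at chr1:234980777-234981026 on the minus strand, LOC124906269 at chr3:115790851-115791100 on the plus strand, LINC-PINT at chr7:130913311-130913560 on the minus strand, ZBTB38 at chr3:141368254-141368503 on the plus strand and LINC01567 at chr16:24671063-24671312 on the minus strand. Capitals mark matches to the AP-1 element TGANTCA, to the Smad palindrome GTCTAGAC and to the Smad element CAGACA or its reverse complement.
LINC03108: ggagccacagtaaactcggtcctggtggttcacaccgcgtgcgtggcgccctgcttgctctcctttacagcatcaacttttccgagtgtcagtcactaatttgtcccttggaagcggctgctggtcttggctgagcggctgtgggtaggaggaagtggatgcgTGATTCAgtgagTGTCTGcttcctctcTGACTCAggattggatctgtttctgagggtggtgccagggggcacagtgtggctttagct
LOC124906269: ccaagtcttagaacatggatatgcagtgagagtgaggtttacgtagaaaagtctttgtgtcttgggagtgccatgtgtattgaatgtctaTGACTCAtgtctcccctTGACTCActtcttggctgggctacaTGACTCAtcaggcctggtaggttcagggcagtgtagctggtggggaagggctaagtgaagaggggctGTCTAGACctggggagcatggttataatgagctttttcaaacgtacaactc
LINC-PINT: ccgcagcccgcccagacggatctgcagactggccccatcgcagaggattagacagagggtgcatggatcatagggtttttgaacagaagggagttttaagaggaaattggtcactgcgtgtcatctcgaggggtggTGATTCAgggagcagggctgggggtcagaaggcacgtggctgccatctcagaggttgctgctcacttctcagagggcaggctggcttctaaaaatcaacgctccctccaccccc
ZBTB38: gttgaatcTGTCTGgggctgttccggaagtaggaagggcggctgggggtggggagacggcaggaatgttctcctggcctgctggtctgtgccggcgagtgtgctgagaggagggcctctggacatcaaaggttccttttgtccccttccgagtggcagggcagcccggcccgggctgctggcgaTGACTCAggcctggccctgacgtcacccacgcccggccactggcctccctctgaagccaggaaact
LINC01567: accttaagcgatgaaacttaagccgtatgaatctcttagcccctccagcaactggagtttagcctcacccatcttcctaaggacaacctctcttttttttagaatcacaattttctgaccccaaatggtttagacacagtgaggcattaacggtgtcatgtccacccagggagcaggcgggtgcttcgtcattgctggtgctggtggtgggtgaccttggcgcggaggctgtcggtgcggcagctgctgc

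The 250 bases shown for LINC03108 lay inside a member of 785 bases, the fourth widest of all, and held 2 AP-1 matches and 1 CAGACA match. Those for LOC124906269 lay inside a member of 311 bases and held 3 AP-1 matches and 1 Smad palindrome. The stretch at LINC-PINT lay inside a member of 590 bases and held 1 AP-1 match, and that at ZBTB38, which encodes a zinc-finger protein that binds methylated DNA, inside a member of 505 bases and held 1 AP-1 and 1 CAGACA match. The stretch at LINC01567 lay inside the second widest member, of 900 bases, and matched none of these elements. These 5 were chosen after their values were seen.

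Promoter windows at members held the AP-1 element more often than other promoter windows. The letters TGANTCA, read on both strands, which are the same for this element, were present in 31 of 117 windows at members (26.5%, 18.8 to 35.5%), in 99 of 1785 windows at other Smad3 peaks of caSmad3 cells (5.55%) and in 2707 of all 35116 windows (7.71%). The interval of the members lay above both other shares. Only 105 of 2896 members reached a window, so these shares do not describe the members as a whole. The rule also kept peaks at protein-coding gene ends out of the members but not out of the other Smad3 peaks. The part of that choice in the AP-1 share was not tested. Most of the matches were at lncRNA genes, where 24 of 65 windows at members held the element (36.9%, 25.3 to 49.8%), against 7.14% of 294 windows at other Smad3 peaks and 10.4% of all 12917 lncRNA windows. For protein-coding genes the element was in 7 of 52 windows at members (13.5%, 5.59 to 25.8%), against 5.23% of 1491 at other Smad3 peaks and 6.15% of all 22199, so that the share of all protein-coding windows lay inside the interval and that at other Smad3 peaks just below it. In 20 of the 105 members at a window the match lay in the stretch that peak and window shared. Windows of 1 gene can overlap and share bases. Windows of different genes can also lie at 1 member, as for LINC-PINT and LINC00513 or CYTOR and NCAL1. The same match can thus be counted more than once, and the windows are not all independent.

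For the remaining elements, read on both strands, the share of all windows lay inside the interval of the members, except for GAAANNGAA. The share at other Smad3 peaks also lay inside that interval, except for the TEAD element, where it lay below. CAGACA or its reverse complement was in 15.4% of windows at members, 12.8% at other Smad3 peaks and 16.9% of all windows. The TEAD element GGAATG was in 17.1% (10.8 to 25.2%), 10.1% and 14.0%, and the RUNX element TGTGGT in 13.7%, 9.97% and 13.1% in the same order. GGCGCC, a GC-rich sequence that Smads can bind, was in 21.4% of windows at members, 28.1% at other Smad3 peaks and 19.2% of all. The letters GAAANNGAA form part of interferon-stimulated response elements. They were in 3 of 117 windows at members (2.56%, 0.532 to 7.31%), 5.77% at other Smad3 peaks and 8.11% of all windows. The share of all windows thus lay above the interval of the members. The E-box CAGCTG was in 16.2%, 16.1% and 17.9%, and the Smad palindrome in 1 window at members, that of LOC124906269 (0.855%), against 0.112% and 0.202%. Median GC content was 60.7% at members, 64.3% at other Smad3 peaks and 58.7% in all windows, and for lncRNA windows 55%, 65.7% and 50%. Base composition thus differed between the sets alongside the AP-1 share, and its part in that share was not tested.

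**Figure D1:**
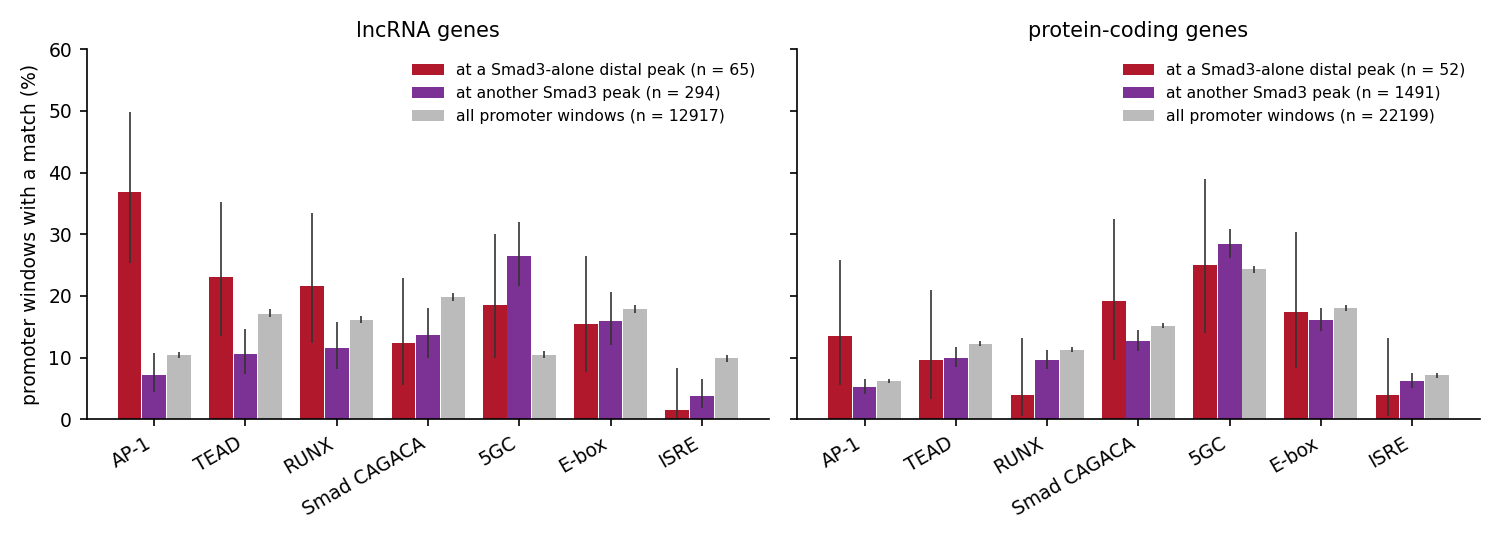
Share of RefSeq promoter windows, in percent, that hold each short element, for lncRNA genes on the left and protein-coding genes on the right, with bars for windows at members, at other Smad3 peaks of caSmad3 cells and for all windows, and lines for 95% Clopper-Pearson intervals (5GC is GGCGCC and ISRE is GAAANNGAA). The AP-1 bar of lncRNA windows at members, 36.9%, stands above the 7.14% and 10.4% of the other sets, and the protein-coding one, 13.5%, has a wide interval.

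Members were narrower than the distal Smad3 peaks that recurred in another list. The median width was 168 bases among members (95% interval from order statistics 164 to 173, quartiles 122 to 254), against 221.5 bases (201 to 253) in 500 distal peaks shared with IRF3 of caSmad3 cells, 356 bases (329 to 378) in 427 distal peaks shared with Smad3 of HA cells but not with IRF3, and 140 bases (135 to 150) in 563 peaks at gene ends that were in none of the 3 lists. The intervals of these 4 classes did not overlap. The narrowest width of the list, 99 bases, was held by 272 members (8.74%) and by 7 of the 427 peaks shared with Smad3 of HA cells (1.64%). A wider peak covers more bases and so can meet another list more easily, and the rule used that overlap, so the order of the widths is given without a test.

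**Figure D2:**
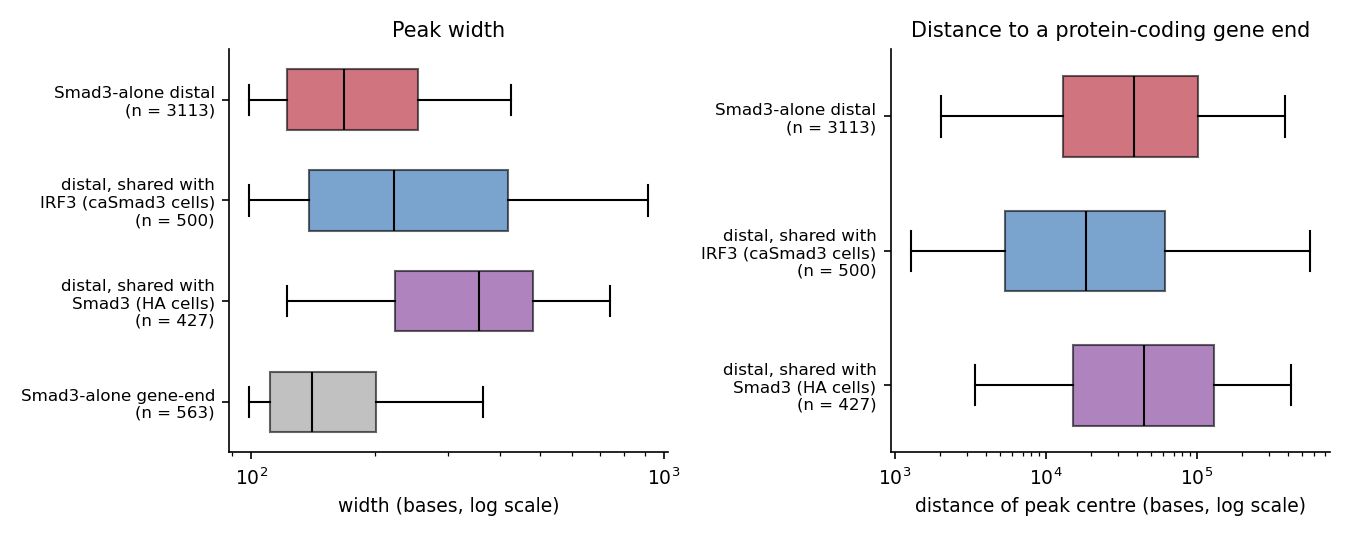
Width of Smad3 peaks of caSmad3 cells by class on the left, and distance of the peak centre to the nearest protein-coding gene end for the 3 distal classes on the right, both in bases on a log scale, with boxes for quartiles, a line for the median and whiskers at percentiles 5 and 95. Members have a median width of 168 bases, against 221.5 for distal peaks shared with IRF3 and 356 for distal peaks shared with Smad3 of HA cells, and a median distance of 38237 bases, against 18328 and 44615 bases.

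The 10 widest members had 672 to 1022 bases. The widest, at chr4:123832051-123833072, lay in a gene-poor stretch 428291 bases from SPRY1, the nearest protein-coding gene, which encodes an inhibitor of receptor tyrosine kinase signalling. The second, of 900 bases, lay inside TNRC6A, whose protein acts in microRNA silencing, and the third, of 817 bases, inside PKIG, which encodes an inhibitor of protein kinase A. The fourth is the peak at LINC03108 shown above, with TOMM20 as its nearest protein-coding gene at 127942 bases. A member of 769 bases lay 18387 bases above COL6A3, a chain of collagen VI, where above means towards higher coordinates. The others had RAB11FIP4, PRICKLE2, DUSP7, DENND2A and FOXS1 as nearest genes.

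The IRF3 list of HA cells was the one list that the rule did not use. Of all 6041 Smad3 peaks of caSmad3 cells 21.7% shared a base with it. Among members the share was 31 of 3113 (0.996%, 0.678 to 1.41%), against 13 of 427 distal peaks shared with Smad3 of HA cells only (3.04%, 1.63 to 5.15%), 25 of 563 gene-end peaks found in none of the 3 lists (4.44%) and 298 of 500 distal peaks shared with IRF3 of caSmad3 cells (59.6%). The interval of the members lay below those of the other 3 classes. The 2 IRF3 lists come from the same cell line and antibody. Peaks overlapping IRF3 of caSmad3 cells were absent from the members, from the 427 distal peaks and from the 563 gene-end peaks alike. These 3 classes had median widths of 168, 356 and 140 bases. The part of the rule, of width and of gene-end position in these shares was not tested.

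Of these 31 members 18 lay at least 10 kb from any IRF3 peak of caSmad3 cells, and 10 lay under 1 kb from one. Their median width was 168 bases, as among all members. The widest was a peak of 516 bases inside KDM6B, which encodes a demethylase of lysine 27 of histone H3, with the next IRF3 peak of caSmad3 cells 617 bases away. The second, of 478 bases near FGGY, and the third, of 426 bases near CCDC54, were 145385 and 334676 bases from such a peak.

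Separation from the lists used by the rule ranged from a single base to megabases. The median gap was 127 kb to the nearest IRF3 peak of caSmad3 cells, 954 kb to the nearest Smad3 peak of HA cells after polyI:C and 3103 kb to the nearest Smad3 peak after mock transfection. A gap under 500 bases was present for 101 members (3.24%) to IRF3 of caSmad3 cells, for 87 (2.79%) to Smad3 after polyI:C and for 29 (0.932%) to Smad3 after mock transfection. Just inside the rule stood a peak near THRAP3 with a gap of 1 base and peaks near SERP2 and EFR3A with gaps of 5 bases. Just outside stood peaks near CDKN2C, ADGRG1 and RHOU that shared 1, 2 and 3 bases with another list, and 14 distal peaks were left out for fewer than 20 shared bases. At the other threshold, centres lay 1003, 1006.5 and 1010 bases from a gene end for peaks at HRCT1, SDR42E2 and PHF12 just inside, and 995, 989 and 979 bases for ZFP36L1, CCN1 and ZNF475 just outside.

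Most members lay far from gene ends, and a large part lay inside genes. The median distance to the nearest end of a protein-coding gene was 38237 bases (35833 to 40374) among members, against 44615 bases (36785 to 53934) among distal peaks shared with Smad3 of HA cells and 18328 bases (14341 to 23771) among those shared with IRF3. The intervals of the first 2 overlapped, and that of the peaks shared with IRF3 lay lower. By distance, 388 members were at 1 to 5 kb (12.5%), 259 at 5 to 10 kb (8.32%), 1157 at 10 to 50 kb (37.2%), 510 at 50 to 100 kb (16.4%), 700 at 100 to 500 kb (22.5%) and 99 beyond 500 kb (3.18%). Inside the bounds of a protein-coding gene lay 1409 members (45.3%, 43.5 to 47.0%), against 41.0% (36.3 to 45.8%) of distal peaks shared with Smad3 of HA cells and 45.6% (41.2 to 50.1%) of those shared with IRF3. These shares differed by less than their intervals. An lncRNA gene was overlapped by 643 members (20.7%).

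Members were not placed at the ends of non-coding genes as often as the distal peaks that IRF3 shared. Within 1 kb of the end of a non-coding gene lay 269 members (8.64%, 7.68 to 9.68%), 54 of 427 distal peaks shared with Smad3 of HA cells (12.6%, 9.64 to 16.2%) and 253 of 500 shared with IRF3 (50.6%, 46.1 to 55.1%). Off chromosome 8, where annotated starts were at hand, 1337 of 2896 members were upstream of the nearest protein-coding start (46.2%, 44.3 to 48.0%), and 93 lay within 1 kb of one (3.21%).

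Many members came in runs. Within 10 kb of another member lay 1159 (37.2%, 35.5 to 39.0%), in 490 runs of which 366 were pairs, 91 had 3 members and 33 had 4 or more, and 1954 members stood singly. The longest run held 9 members in 21382 bases at chr22:46064678-46086059, across MIRLET7BHG, the host gene of a let-7 microRNA cluster, LINC02939 and LOC124905135. Runs of 7 lay inside ZNF217, a zinc-finger gene often amplified in breast cancer, over 13530 bases, and at LINC00963 and LOC124900275 over 27729 bases. A run of 6 was packed into 2493 bases at chr14:74979027-74981519 between EIF2B2, a subunit of a translation initiation factor, and PGF, placental growth factor, with a widest peak of 524 bases. Whether neighbouring members are pieces of 1 broad region was not tested.

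Density differed between chromosomes. Across the genome there were 1.01 members per Mb, with 2.56 per Mb on chromosome 20, 1.86 on chromosome 19, 1.84 on chromosome 17, 1.73 on chromosome 9 and 1.71 on chromosome 3, and with 0.417 on X and 0.429 on chromosome 13. Chromosomes 3, 8, 9 and 20, grouped after their counts were seen, held 960 members (30.8%, 29.2 to 32.5%), which is 1.76 per Mb against 0.847 per Mb on the other chromosomes. The same chromosomes held 30.2% of all Smad3 peaks of caSmad3 cells, 1611 of 8067 IRF3 peaks of caSmad3 cells (interval 19.1 to 20.9%), 32.1% of Smad3 peaks of HA cells after polyI:C, 31.7% after mock transfection and 23.2% of IRF3 peaks of HA cells. The shares of the 3 Smad3 lists were all above those of the IRF3 lists. Because the grouping followed the counts, this order is a description and not a test. Chromosomes 19 and 17, denser in members than chromosomes 9 and 3, were not in the group. Copy number of chromosomes 3, 8, 9 and 20 in BT549 was not measured here, and its part in the density was not tested.

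**Figure D3:**
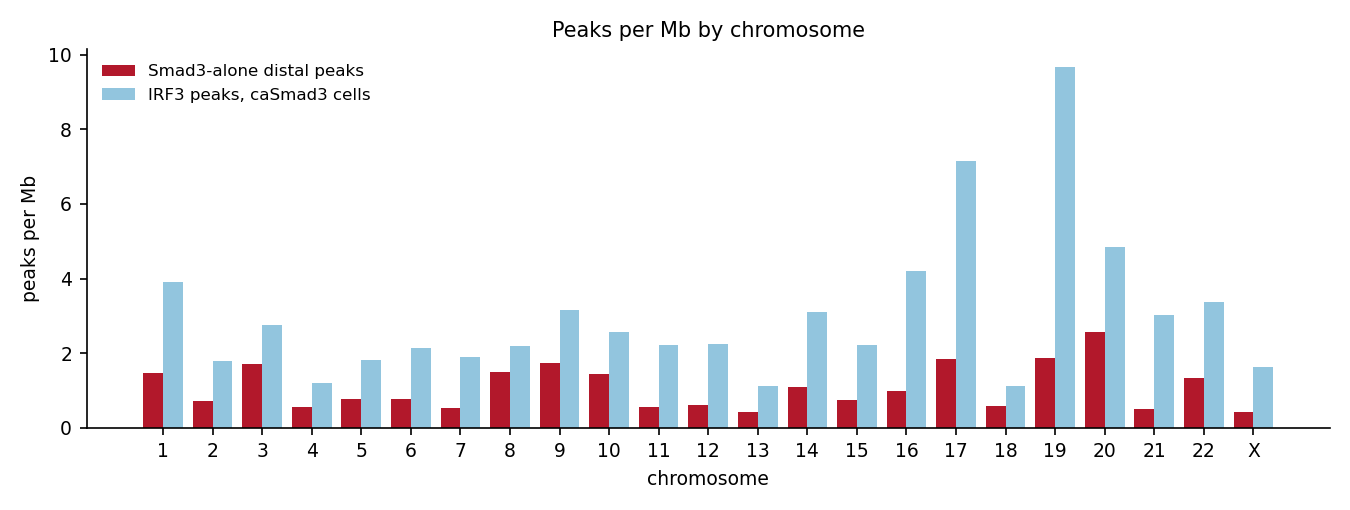
Members and IRF3 peaks of caSmad3 cells per Mb on each chromosome, with the length of a chromosome taken as the end of its last annotated gene. Members are densest on chromosome 20, at 2.56 per Mb, whereas IRF3 peaks are densest on chromosome 19.

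A group of related genes with many members was the PSG cluster on chromosome 19, named after its counts were seen. The PSG genes encode pregnancy-specific glycoproteins, secreted mainly by the placenta. All 10 PSG genes of the annotation had a member within 50 kb, against 13.2% of all protein-coding genes. They lie side by side, so the same member can count for several of them, and the 10 are not independent. The span from 42721642 to 43269530 with 50 kb on both sides held 25 members, or 38.6 per Mb. Across the genome there were 1.01 members per Mb, and on chromosome 19 there were 1.86. The 25 members had widths of 99 to 503 bases and a median of 195 bases. The same span held 26 Smad3 peaks and 1 IRF3 peak of caSmad3 cells, and 0 peaks of each Smad3 list and of the IRF3 list of HA cells. PSG genes are closely related in sequence, and their identity was not measured here. How reads with several matching places were assigned is not given in the sources used here, so the peaks of single PSG genes are uncertain.

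A gene was counted as near a member when a member overlapped it or lay within 50 kb. By this measure 2650 of 20037 protein-coding genes were near a member, which is 13.2% of all genes and the background for the lists described next. A member lay inside 925 genes (4.62%), within 10 kb of 1269 (6.33%) and within 100 kb of 4121 (20.6%). Genes near a member were long, with a median length of 40508.5 bases against 24115 bases for all genes. The part of gene length in being near a member was not tested. Intervals for lists are Clopper-Pearson at 95%, cover counting error only, and treat neighbouring genes as independent. The lists were chosen with earlier results of these data known, so their shares are a description and not a test.

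Of 40 textbook targets of TGF-beta and Smads 20 were near a member (50%, 33.8 to 66.2%, against 13.2% of all genes). The median length of these 40 genes was 10543 bases. With their flanks they held 8.55 members per Mb, against 1.25 per Mb over all genes. SMAD7, which encodes an inhibitory Smad that TGF-beta induces, had 4 members at 1421, 1748, 47143 and 47324 bases above it, with widths of 149, 176, 99 and 242 bases. These were its only peaks in the 5 lists within 50 kb.

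Other targets had peaks in several lists. CCN1, a secreted matrix-associated protein, had 4 members, and within 50 kb 11 Smad3 and 6 IRF3 peaks in caSmad3 cells, 3 Smad3 peaks in HA cells after polyI:C, 0 after mock transfection and 7 IRF3 peaks in HA cells. The 2 members inside CCN1 each lay 22 bases from an IRF3 peak of caSmad3 cells, and the others 3355 and 27476 bases. TGFBI, a matrix protein named for its induction by TGF-beta, had 3 members, and 6 Smad3 and 1 IRF3 peaks in caSmad3 cells, 3 Smad3 peaks after polyI:C, 1 after mock transfection and 0 IRF3 peaks in HA cells. LTBP2, which encodes a matrix protein of the latent TGF-beta binding protein family, had 3 members and Smad3 peaks in all 3 lists, with 6 in caSmad3 cells, 2 in HA cells after polyI:C and 3 after mock transfection. At these genes the members stood beside peaks that the other lists also held. BHLHE40 had 2 members, PLAUR, the urokinase receptor gene, had 3, and GADD45B and NEDD9 had 1 each.

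ITGB6, named beyond the rule for its count, encodes the beta subunit of an integrin that activates latent TGF-beta. It had 4 members at 7901 to 41734 bases above it, beside 5 Smad3 and 0 IRF3 peaks in caSmad3 cells, 2 Smad3 peaks in HA cells after polyI:C and 0 in the other lists. CCN2, another textbook target, had 0 members within 50 kb but 3 Smad3 and 6 IRF3 peaks in caSmad3 cells, and 0 peaks in HA cells.

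Components of the pathway itself stood nearer to the background, at 7 of 28 (25%, 10.7 to 44.9%) and 1.80 members per Mb, and these genes were long with a median of 77215.5 bases. Among ligands and their latent binding proteins TGFB2 had 1 member of 108 bases inside the gene, LTBP1 had 2 inside it and LTBP3 had 3 nearby. Among receptors TGFBR2, the type II receptor that binds the ligand, and ACVR1, a type I receptor, had 1 member each inside the gene. SMAD3 had a single member of 99 bases inside it, at chr15:67107037-67107135, and that was its only peak in the 5 lists within 50 kb. SMAD2, the other receptor-activated Smad of the pathway, had 0 peaks in all 5 lists, and SMAD4, the shared partner, had 0 members and 1 IRF3 peak in caSmad3 cells. Of the inhibitors, the co-repressor gene SKI, which was counted among the targets above and not in this list, had 1 member inside the gene, the ubiquitin ligase gene SMURF2 had 1 at 44758 bases, and SMAD6 and SKIL had 0.

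**Figure D4:**
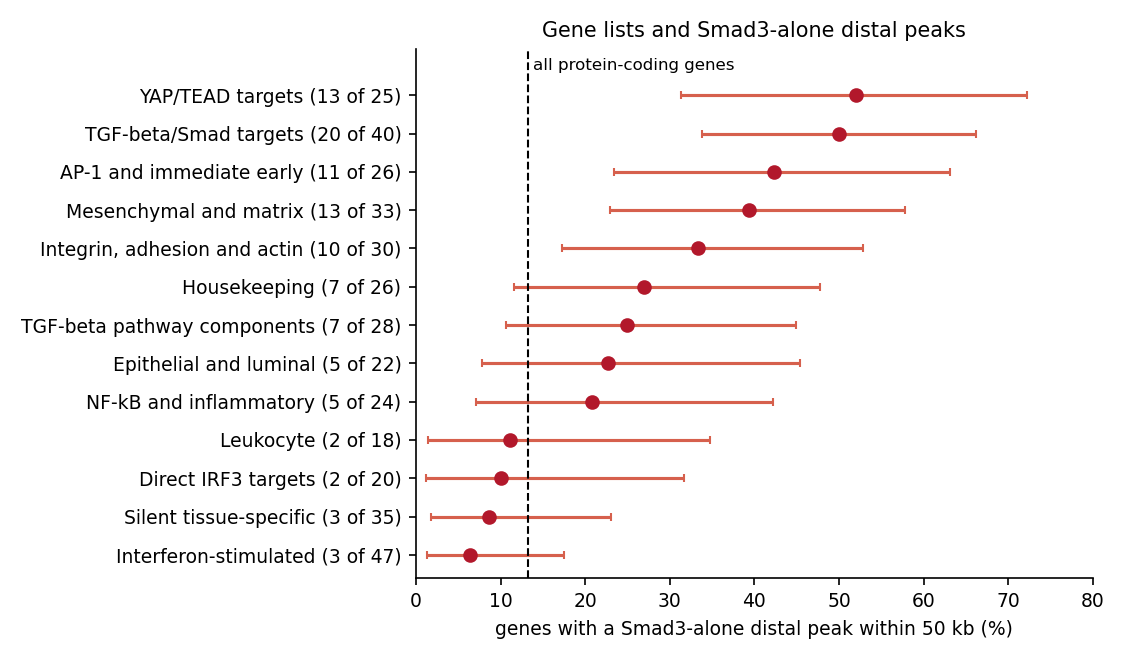
Share of each gene list with a member within 50 kb, in percent, with 95% Clopper-Pearson intervals and a line at the 13.2% of all protein-coding genes. The lists of TGF-beta and Smad targets (50%) and YAP and TEAD targets (52%) are highest, and interferon-stimulated genes (6.38%) are lowest. The lists were chosen with earlier results of these data known.

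Genes of mesenchymal cells and matrix were near a member in 13 of 33 cases (39.4%, 22.9 to 57.9%), with 5.94 members per Mb. LOXL2, which encodes an enzyme that cross-links collagen, had 6 members inside the gene, among 8 Smad3 and 2 IRF3 peaks in caSmad3 cells, 1 Smad3 peak after polyI:C, 0 after mock transfection and 2 IRF3 peaks in HA cells. COL5A1, a chain of collagen V, had 8 members with widths of 105 to 451 bases, among 10 Smad3 and 1 IRF3 peaks in caSmad3 cells and 1 Smad3 peak in HA cells after polyI:C. COL6A3 had 5 members, which were all its Smad3 peaks in caSmad3 cells, and 0 peaks in the lists of HA cells. COL4A2 had 2 members, and CD44, TWIST2, FAP, PDGFRB and VIM had 1 each. PLAU, the gene of urokinase, named beyond the rule, had 4 at 13873 to 21327 bases below it.

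Targets of YAP and TEAD were near a member in 13 of 25 cases (52%, 31.3 to 72.2%), with 4.67 members per Mb, and all 13 also had one within 10 kb (52%, against 6.33% of all genes). MYOF, which encodes a membrane-repair protein of the ferlin family, had 6 members of 103 to 330 bases inside the gene. WWTR1, which encodes the YAP homologue TAZ and is named beyond the rule, had 4 inside it. AMOTL2 had 3, NT5E and PTPN14 had 2 each, and AMOTL1, ASAP1, CRIM1 and F3 had 1 each. TGFB2 was also in this list. The list genes were long, with a median of 81280 bases.

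AP-1 and immediate early genes were near a member in 11 of 26 cases (42.3%, 23.4 to 63.1%), with 6.90 members per Mb. IER2 had 4 members, and FOSL1, which encodes a Fos-family partner of Jun, had 2, 1 of them overlapping the gene. JUN and IER3 had 2 each, FOS had 1 at 19468 bases, and MYC and KLF6 had 1 each. The FOS member and the IER2 member inside its gene lay 56 and 57 bases from an IRF3 peak of caSmad3 cells. The members at JUN lay 25366 and 31514 bases from one. Genes for integrins, adhesion and actin were near a member in 10 of 30 cases (33.3%, 17.3 to 52.8%). LPP, a protein of focal adhesions, had 5 members inside the gene, and TPM1, a tropomyosin, had 4 inside it and 1 further away. ITGA3 had 5 and ACTN4 had 2.

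The rule had removed every Smad3 peak that overlapped an IRF3 peak of caSmad3 cells or lay at a gene end. The part of the rule in the shares among antiviral genes was not tested, and these shares are given as a description. Of 47 interferon-stimulated genes 3 were near one (6.38%, 1.34 to 17.5%), namely SOCS3, HELZ2 and LGALS3BP, with 0.814 members per Mb, and 0 had a member inside, which by 3 counts of 47 allows a share of up to 6.38% (Clopper-Pearson upper bound 7.55%). Of 20 direct IRF3 targets 2 were near a member (10%, 1.23 to 31.7%). These were TNFSF10, the gene of the death ligand TRAIL, with 2 members, and IFIH1, an RNA sensor, with 1. IFNB1, the interferon beta gene, had 0 members and 0 peaks in 4 lists, and 7 IRF3 peaks in HA cells. IRF3 itself had 0 members, and 3 Smad3 and 7 IRF3 peaks in caSmad3 cells. Both intervals include the 13.2% of all genes.

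NF-kB and inflammatory genes were near a member in 5 of 24 cases (20.8%, 7.13 to 42.2%). CXCL8, the gene of the neutrophil attractant interleukin 8, had 2 members, 1 of them 633 bases wide at 35646 bases below the gene, with 0 IRF3 peaks in caSmad3 cells and 2 in HA cells. CXCL2 had 3 members, and CXCL1, CCL2 and NFKBIA had 1 each. Epithelial and luminal genes were near one in 5 of 22 cases (22.7%), housekeeping genes in 7 of 26 (26.9%, 11.6 to 47.8%), leukocyte genes in 2 of 18 (11.1%) and tissue-specific genes with no known role in these cells in 3 of 35 (8.57%). The share of housekeeping genes was above the 13.2% of all genes, but its interval includes that value. They had 2.68 members per Mb against 1.25 over all genes, which bears on how the other lists are read.

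The genes with the most members within 50 kb were of mixed function. LOC124905135 and FRMD4A, a scaffold protein of cell polarity, had 10 each, ABL1, a tyrosine kinase, had 9, and LIF, LOC124900275, ZNF217, HORMAD2, SHB, NRP1 and COL5A1 had 8 each. LIF encodes a cytokine of the interleukin 6 family and was short, at 6307 bases. Its 8 members stood from 43867 bases below to 3791 bases above it, with widths of 99 to 429 bases, and within 50 kb there were 10 Smad3 peaks in caSmad3 cells and 0 peaks in the other 4 lists. HORMAD2 lies beside LIF and shares members with it. NRP1, a co-receptor of vascular endothelial growth factor and semaphorins, had 9 Smad3 peaks, 1 IRF3 peak and 8 members in caSmad3 cells, and 1 Smad3 peak in HA cells after polyI:C. ZNF217 had 11 Smad3 and 3 IRF3 peaks in caSmad3 cells, 1 Smad3 peak after polyI:C, 0 after mock transfection and 1 IRF3 peak in HA cells. FRMD4A, at 687219 bases, is among the long genes, so its count is spread over a wide stretch.

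**Figure D5:**
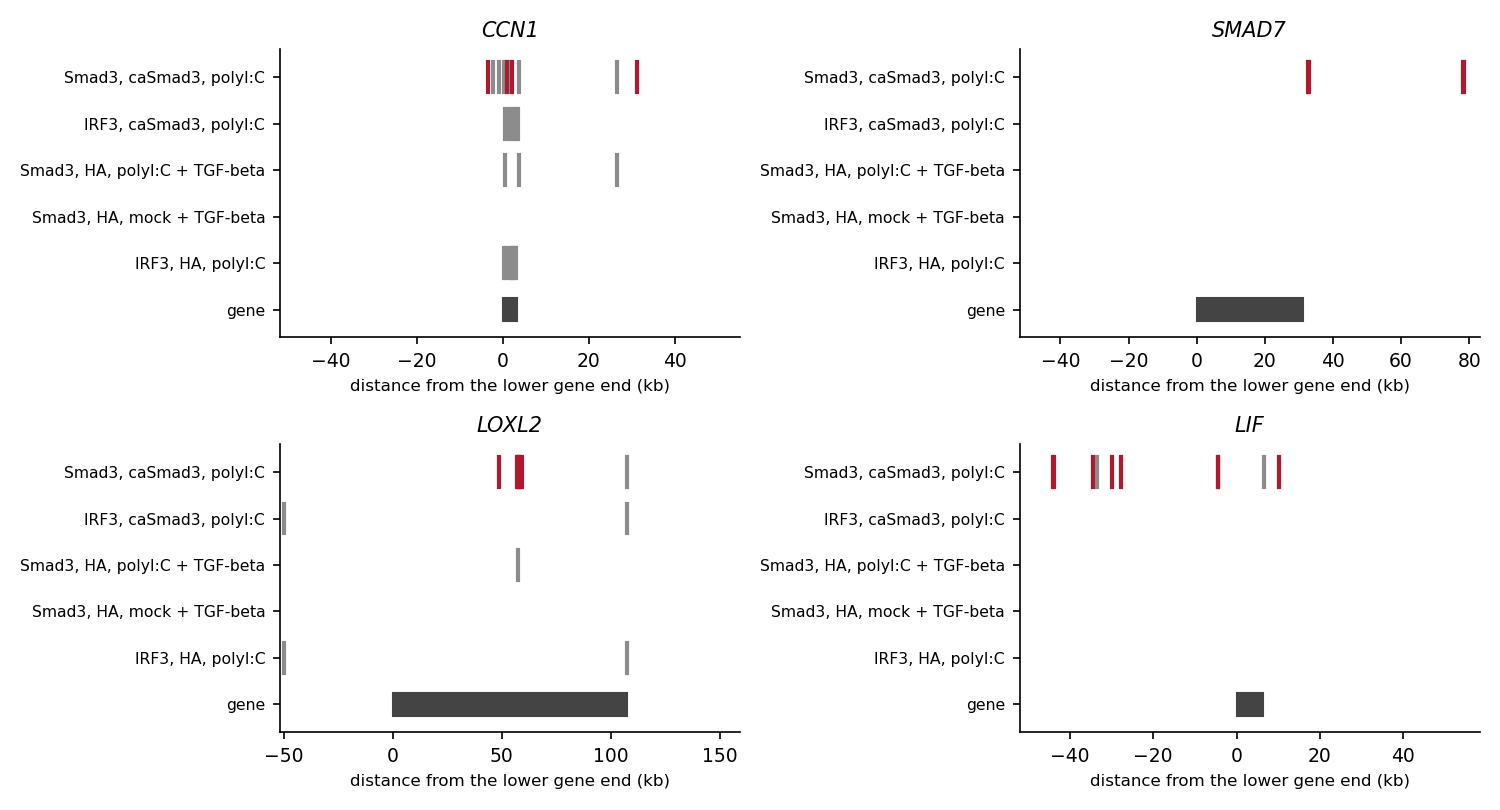
Peaks of the 5 lists within 50 kb of CCN1, SMAD7, LOXL2 and LIF, plotted by distance in kb from the lower gene end, with the 2 lists of caSmad3 cells above the 3 of HA cells, members in red, other peaks in grey and the gene as a dark bar. SMAD7 and LIF have Smad3 peaks of caSmad3 cells only (4 and 10, some too close to be drawn apart), whereas CCN1 and LOXL2 have peaks in 4 of the 5 lists.

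IRF3 peaks of HA cells, which the rule did not use, lay within 50 kb of 1205 of the 2650 genes near a member (45.5%, 43.6 to 47.4%), against 37.6% of all protein-coding genes. Gene length differed between the sets as given above, so its part in this difference was not tested.

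A few members stood beside microRNA genes. A share within 1 kb was not computed for other genes or for other Smad3 peaks, so the count is a description. For scale, 4.62% of protein-coding genes, which are longer than hairpins, had a member inside. Of 1560 hairpins 12 (0.769%) lay within 1 kb of one of 11 of the 3113 members. The mature sequences of 6 broadly expressed microRNAs among them are shown, 5′ to 3′ from RefSeq, with bases 2 to 8, the seed that pairs with targets, in capitals.
hsa-miR-21-5p: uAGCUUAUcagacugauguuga
hsa-miR-23a-3p: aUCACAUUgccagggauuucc
hsa-miR-27a-3p: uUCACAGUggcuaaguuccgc
hsa-miR-24-3p: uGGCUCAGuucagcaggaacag
hsa-let-7i-5p: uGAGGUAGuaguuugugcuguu
hsa-miR-193a-3p: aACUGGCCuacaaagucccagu

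The 6 seeds all differed. The hairpin of miR-21, a microRNA raised in many cancers, began 461 bases past a member of 149 bases at chr17:59840657-59840805. That member was one of the 31 that overlapped an IRF3 peak of HA cells, and it lay 1158 bases from the next IRF3 peak of caSmad3 cells. It lies inside VMP1, an autophagy gene that had 7 members and, within 50 kb, 14 Smad3 and 6 IRF3 peaks in caSmad3 cells, 3 and 2 Smad3 peaks in HA cells after polyI:C and mock transfection, and 7 IRF3 peaks in HA cells. The hairpins of miR-23a, miR-27a and miR-24, which are made from 1 transcript, had a member of 109 bases at 364, 506 and 664 bases upstream, within a run of 6 members over 14421 bases, and the next IRF3 peak lay 62394 bases away in caSmad3 cells and 62445 bases away in HA cells. A member of 235 bases ended 111 bases upstream of the let-7i hairpin, with an IRF3 peak of caSmad3 cells 262 bases from it, and a member of 157 bases overlapped the miR-193a hairpin. These microRNAs and VMP1 were named after their values were seen, and no expression was measured, so the peaks give position only.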

How the data were processed

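Chromatin immunoprecipitation followed by sequencing was done with anti-Smad3 or anti-IRF3 antibodies, per the labels' protocols. Bowtie2 2.2.2.6, MACS2 2.1.0 and build hg38 are named in the submitters' processing notes. Duplicate handling, input control and calling thresholds, not given in the sources used here, could change which peaks are listed. For each library, the authors deposited 1 list, with positions in bases and no score, so the deposited values are of no standard unit and carry no depth. From them, overlaps of at least 1 base, widths, gaps and distances were computed with Python 3.11.15, pandas 2.3.3, numpy 2.4.6 and scipy 1.17.1, and the interval code was tested on simulated data.

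Genes, promoter windows and microRNAs came from RefSeq (GRCh38.p14, the coordinates of hg38), whose gene table gave no strand. Starts were known off chromosome 8 only. The members, the gene lists and the comparisons were chosen with earlier results of these data known. Named genes were those nearest to the 10 widest members, the 10 with most members within 50 kb, up to 8 per list by distance, a fixed set of pathway genes and those at the 3 densest runs. Others are named as chosen after their values were seen. All gene symbols of the lists matched the table. Shares have Clopper-Pearson intervals at 95%, which cover counting error only and treat peaks, windows or genes as independent. A count of 0 allows a share of 3 counts. No test was made between conditions because each group had 1 library. The planned motif search in peak sequence was replaced by one in promoter windows. Some results on named genes are not reported here.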

Additional observations from a re-analysis of the deposited data

How the results depend on the processing

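Other settings of the rule left 2725 to 3183 members with a median width of 168 to 171 bases. Of 54 alternatives 39 moved a value by less than its interval or a count by less than 1.5 times. The share of members overlapping an IRF3 peak of HA cells was 2.12% when a gap under 500 bases counted as overlap. The share inside a protein-coding gene was 43.2% with members more than 5 kb from gene ends, 42.7% among members wider than the median and 61.7% with non-coding genes counted, and the median distance to a gene end was 46906 bases with the 5 kb limit. The share of members near another member was 27.5% within 2 kb, 52.6% within 50 kb and 34.3% without chromosomes 3, 8, 9 and 20. Genes near a member numbered 1269 within 10 kb, 4121 within 100 kb, 925 with a member inside and 1568 with members wider than the median. Targets of TGF-beta and Smads near a member numbered 14 to 24 under the other settings but 6 of 40 with a member inside (15%, against 4.62% of all genes). The AP-1 share was 36.9% in lncRNA and 13.5% in protein-coding windows, settings chosen after seeing the data, as were the counts of genes and targets under the other rules of membership or without chromosomes 3, 8, 9 and 20.

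The planned search for AP-1 and other elements in 200 bases around peak centres was not run, as it needs genome sequence. No paired analysis was possible because each group had 1 library. Depth is unknown, so the absence of a listed peak does not show absence of binding, and a member is a region not listed in 3 other lists rather than a region shown to lack IRF3 or Smad3 there.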

Other observations

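Of the 3113 members 12 lay more than 1 Mb from any end of a protein-coding gene (0.385%), on 7 chromosomes, with a median width of 122 bases. The farthest, of 99 bases, was at chr22:10842012-10842110, and members at chr20:28308550-28308701 and chr3:91550598-91550764 lay 7058 and 2170 bases from an IRF3 peak of caSmad3 cells. The member on chromosome 3 was also one of the 31 that overlapped an IRF3 peak of HA cells. How reads with several matching places were assigned is unknown for these peaks too.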
